A study of Homo sapiens with 9 samples.

Results

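The genes for 10 core proteins of stress granules were followed through heat stress and recovery in HEK293T, a line of human embryonic kidney cells with the SV40 large T antigen. They are G3BP1, G3BP2, CAPRIN1, USP10, UBAP2L, TIA1, TIAL1, PABPC1, ATXN2 and FMR1, chosen by name from the 60664 genes of the count table through their Ensembl identifiers, and all 10 members were tested. Total RNA, depleted of ribosomal RNA, was sequenced. The conditions were NC (untreated cells at 37°C, 2 libraries), H1 (43°C for 1 h, 2 libraries), H1R1 and H1R6 (the same heat followed by 1 h or 6 h at 37°C, 2 libraries each) and H1R18 (18 h at 37°C after the heat, 1 library). The cells were the same unmodified line in every condition. The labels do not tell separate cultures from repeat libraries of 1 culture, so the p-values measure only the spread between these libraries, and the spread of H1R18 is taken from the other conditions.

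Stress granules are condensates of untranslated mRNA and protein that form in the cytoplasm when initiation of translation is blocked, as during heat, oxidative stress or viral infection, and that dissolve on recovery. G3BP1 and G3BP2 bind RNA and form the network that holds a granule together, CAPRIN1 and UBAP2L bind to G3BP and favour assembly, and USP10 binds the same site on G3BP as CAPRIN1 and opposes it. TIA1 and TIAL1 carry a prion-like domain, and PABPC1, the ATXN2 that binds it, and FMR1 arrive with the mRNA. RNA-seq measures the transcripts of these genes, not their proteins and not the granules themselves.

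The libraries held between 3814195 and 6221613 counts, with a median of 5533404, and the H1R18 library and 1 NC library were the shallowest. Both reads of a pair were counted, and 81.8% to 87.5% of the counts above 0 were even. The libraries therefore held fewer read pairs than counts. Values are CPM (counts relative to the library total, scaled by the TMM method), and the fold changes come from edgeR's quasi-likelihood test with Benjamini-Hochberg adjustment over the 21139 genes tested, called at an adjusted p under 0.05. The heat labels were borne out by DNAJB1, a co-chaperone of the heat shock response, at 1910.4 and 2096 CPM in H1, against 69.5 and 80.4 CPM in NC. HSPH1 and HSPA6, 2 further chaperone genes of that response, were also called higher at H1, with log2 fold changes of 3.68 and 6.97. Of the markers of the line, NEFM stood at 44.3 to 65.4 CPM and PAX2 at 6.26 to 14.6 CPM, INA had 2 to 12 counts, and LHX1 had at most 2 counts. PTPRC, PECAM1, ALB and HBB, which mark blood, endothelium and liver, had at most 5 counts in any library, while the collagen gene COL1A1 stood at 44 to 64.2 CPM.

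The 10 genes held between 0.322% and 0.364% of the counts of each library, and the members called against NC were called at recovery times. The 4 comparisons with NC share the same 2 NC libraries. At H1, none of the 10 passed the test by edgeR or by DESeq2, and 1 (TIA1) had an unadjusted p under 0.05, while 5.2% of all genes tested and 7.84% of the abundant ones were called, abundant meaning the 7118 genes with an average log2 CPM of 5 or more, as all 10 members are. At H1R1, 5 of 10 were called and all 5 were higher than NC, namely G3BP1, G3BP2, CAPRIN1, UBAP2L and TIAL1, where 20.2% of all genes and 35.3% of the abundant ones were called in either direction, and 10.7% of all genes were called higher. At H1R6, G3BP1 and G3BP2 were the 2 members called, both higher, beside 7.03% of all genes and 16% of the abundant ones called, and 3% of all genes called higher. At H1R18, 4 members were called beside 11% of all genes and 22.6% of the abundant ones. G3BP1 and FMR1 were lower, as were 6.43% of all genes, and TIAL1 and PABPC1 were higher, as were 4.58%. Shares by direction, here and below, are of all genes tested. For the abundant genes, to which the members belong, only the share called in either direction is given. The median log2 fold change of the 10 was 0.03 at H1, 0.22 at H1R1, 0.03 at H1R6 and -0.20 at H1R18, beside -0.01, -0.01, -0.01 and -0.03 over all genes. Over the abundant genes the median was 0.0021, 0.060, -0.0082 and -0.055 at the same times. In bulk RNA, fewer cells with a transcript and less of it in each cell cannot be told apart.

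**Figure D1:**
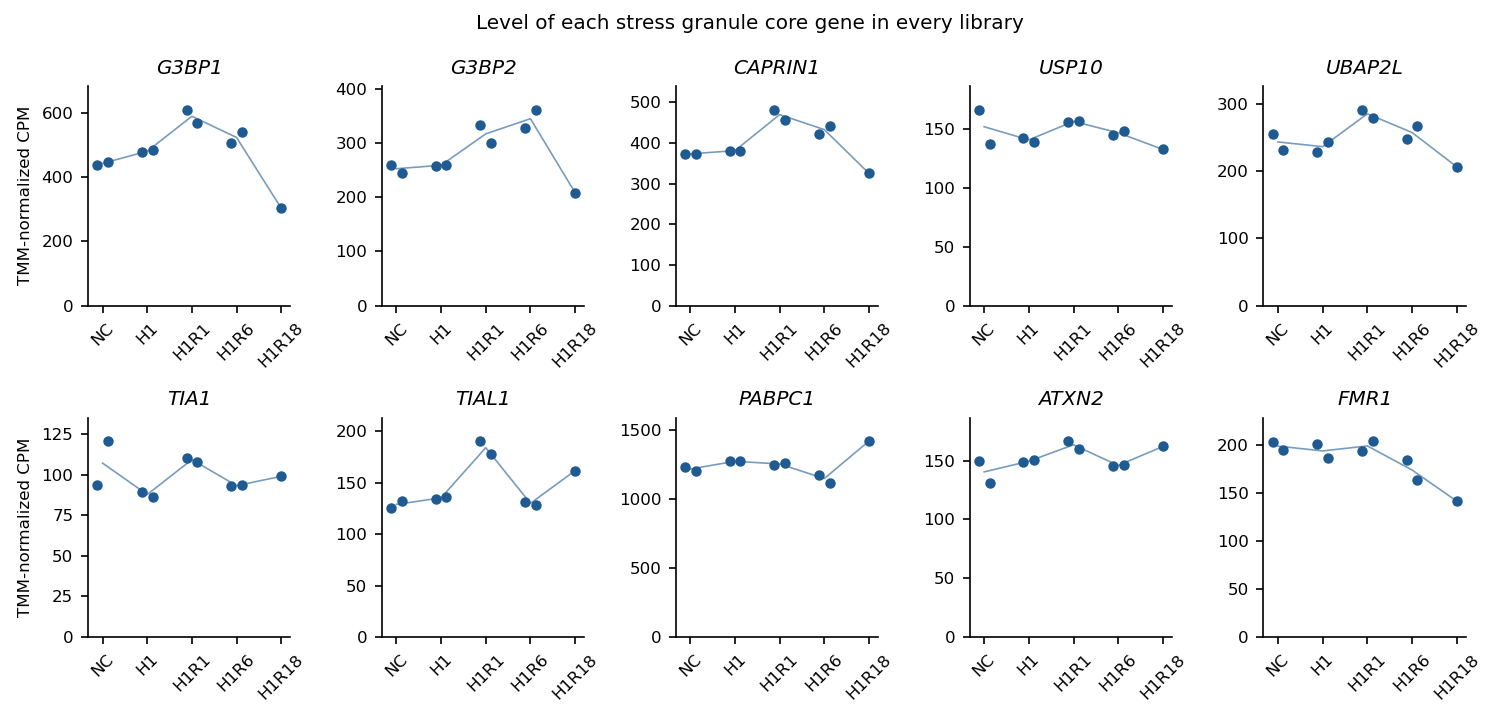
TMM-normalized CPM of each of the 10 genes in all 9 libraries, in the order NC, H1, H1R1, H1R6, H1R18. Points are libraries and the line joins the condition means. G3BP1, CAPRIN1 and TIAL1 stand highest at H1R1, G3BP2 at H1R6 and PABPC1 at H1R18.

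The counts at H1R1 depend in part on 1 library. Without H1R1 replicate 1, 3 members were called in place of 5, and the G3BP2 call was lost (adjusted p = 0.0862). G3BP1, CAPRIN1 and TIAL1 were called at H1R1 in all 18 alternative analyses. UBAP2L was not called in 10 of those 18.

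G3BP1, the main nucleator of the granule (chromosome 5, 151771045 to 151812911, GRCh38), showed the widest swing of the 10. Its level was 437 and 447 CPM in NC, 477 and 483 CPM in H1, 609.6 and 568 CPM in H1R1, 506 and 539 CPM in H1R6, and 303 CPM in H1R18. Both libraries of H1, H1R1 and H1R6 lay above both NC libraries, and the H1R18 library lay below them. The log2 fold change against NC was 0.12 (SE 0.068) at H1, which did not pass the test with an adjusted p of 0.388. It was 0.41 (SE 0.068, adjusted p = 3.8e-05) at H1R1. The value at H1R6 was 0.24 (SE 0.068, adjusted p = 0.0248), a call lost without NC replicate 1 (adjusted p = 0.0855), without H1R6 replicate 2 (adjusted p = 0.207) and with only the conditions compared in the fit (adjusted p = 0.0538). At H1R18 the log2 fold change of G3BP1 was -0.55 (SE 0.087, adjusted p = 5.6e-05), and this call was made in each of 17 alternative analyses too. All 17 use the same H1R18 library, so they cannot show how far the call depends on it. Set against H1R6, the H1R18 library differed by -0.79 (SE 0.088, adjusted p = 1.19e-07).

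G3BP2, its paralog with the same domains (chromosome 4, 75641849 to 75724589), had its highest mean at H1R6. It stood at 260.4 and 246 CPM in NC, 259 and 260.3 CPM in H1, 335 and 301 CPM in H1R1, 329 and 363 CPM in H1R6, and 209 CPM in H1R18. The H1 libraries overlapped with those of NC, and those of H1R1 and H1R6 overlapped with each other and not with NC. Against NC, the log2 fold change was 0.33 at H1R1 (SE 0.079, adjusted p = 0.00301) and 0.45 at H1R6 (SE 0.079, adjusted p = 0.000277). The call at H1R6 was made in all 18 alternatives. The H1R18 library was below both NC libraries, but the difference of -0.28 (SE 0.10) did not pass the test, with an adjusted p of 0.0740. Against H1R6 it did, at -0.73 (SE 0.10, adjusted p = 5.74e-06).

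The ratio of G3BP1 to G3BP2 within a library, which no scaling factor can change, was 1.68 and 1.82 in NC, 1.85 and 1.85 in H1, 1.82 and 1.89 in H1R1, 1.54 and 1.49 in H1R6, and 1.45 in H1R18. The values of H1R6 and H1R18 lay below those of all 6 other libraries. For H1R6 against H1R1 the 2 paralogs had estimates of opposite sign, -0.17 (SE 0.067) for G3BP1 and 0.12 (SE 0.078) for G3BP2, and neither passed the test (adjusted p = 0.0836 and 0.329).

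Of the proteins that bind G3BP, CAPRIN1 (chromosome 11, 34051731 to 34102610) had the highest correlation with G3BP1 over the 9 libraries. CAPRIN1 was at 374 and 373 CPM in NC, 381 and 381 CPM in H1, 483 and 458 CPM in H1R1, 423 and 443 CPM in H1R6, and 325 CPM in H1R18. The order of the condition means was that of G3BP1, with H1R1 on top and H1R18 at the bottom. The log2 fold change was 0.33 at H1R1 (SE 0.069, adjusted p = 0.00069). At H1R6 it was 0.21 (SE 0.069), just short of the threshold with an adjusted p of 0.0558, and 8 of 18 alternatives called it, with adjusted p between 0.0247 and 0.0496. H1R18 differed from NC by -0.20 (SE 0.087, adjusted p = 0.148) and from H1R6 by -0.41 (SE 0.087, adjusted p = 0.00123).

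UBAP2L, an RNA-binding partner of G3BP needed for assembly (chromosome 1, 154220179 to 154271510), was also called higher at H1R1. It was at 256 and 232 CPM in NC, 229 and 244 CPM in H1, 292 and 279 CPM in H1R1, 249 and 267 CPM in H1R6, and 207 CPM in H1R18. The H1R1 libraries were above every other library and the H1R18 library was below every other one. The difference at H1R1 was 0.23 (SE 0.080, adjusted p = 0.0406), and it was no longer called without NC replicate 2 (adjusted p = 0.226) or with counts scaled to library size only (adjusted p = 0.146). H1R18 differed from H1R6 by -0.32 (SE 0.10, adjusted p = 0.0313), a call lost without H1R6 replicate 2 (adjusted p = 0.171).

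USP10, the deubiquitinase that competes with CAPRIN1 for G3BP (chromosome 16, 84699986 to 84779922), was called in none of the 7 comparisons. Its level was 166 and 137 CPM in NC, 142 and 139 CPM in H1, 156 and 156 CPM in H1R1, 145 and 148 CPM in H1R6 and 132 CPM in H1R18. The H1R18 library was the lowest, at -0.20 (SE 0.12, adjusted p = 0.310) against NC. Its log2 fold change at H1R1 was 0.04 (SE 0.093) with an adjusted p of 0.825, and whether it differed from CAPRIN1 in this was not tested. The ratio of CAPRIN1 to USP10 was 2.25 and 2.72 in NC, 2.68 and 2.75 in H1, 3.10 and 2.93 in H1R1, 2.92 and 2.99 in H1R6, and 2.46 in H1R18. The ratio of G3BP1 to USP10 was 2.63 and 3.26 in NC, 3.36 and 3.48 in H1, 3.91 and 3.63 in H1R1, 3.50 and 3.64 in H1R6, and 2.29 in H1R18. Both ratios were thus higher in all 4 libraries of H1R1 and H1R6 than in either NC library, and the H1R18 value of the second was below all others.

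**Figure D2:**
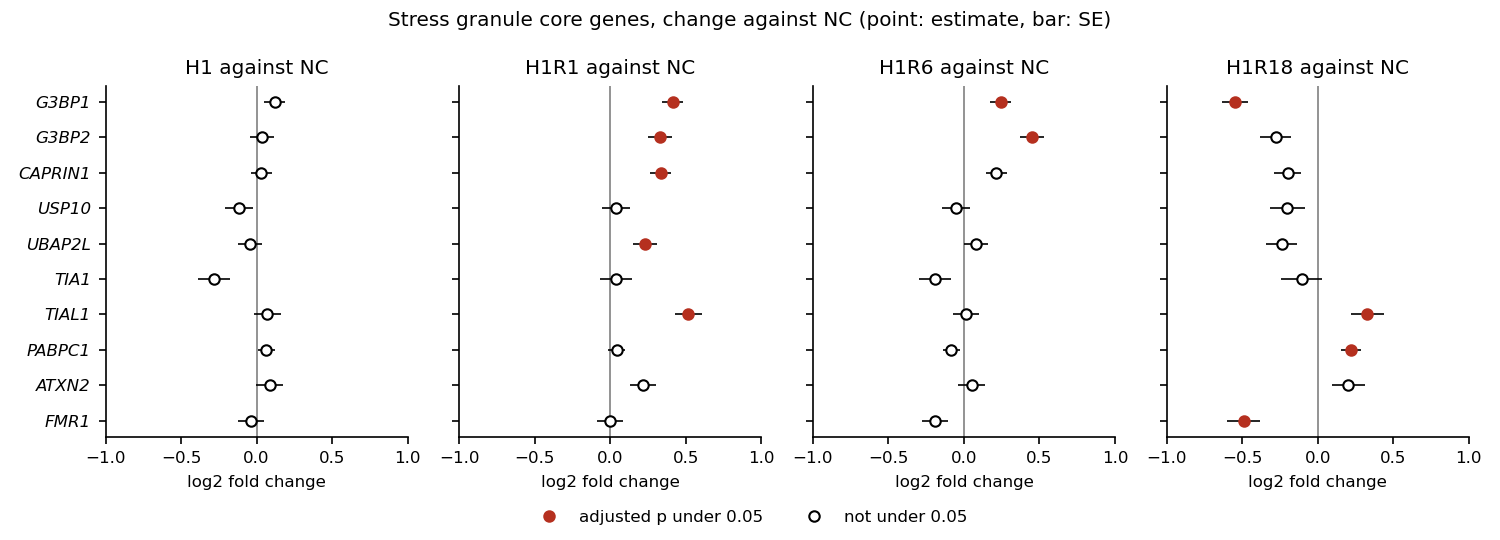
Log2 fold change of each of the 10 genes against NC, with H1, H1R1, H1R6 and H1R18 in panels from left to right. Points are estimates of the edgeR fit and bars are SE; filled points have an adjusted p under 0.05. No point is filled at H1, 5 are filled to the right of 0 at H1R1, 2 at H1R6, and at H1R18 2 lie on each side.

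TIA1 and TIAL1 are paralogs that bind U-rich RNA, regulate splicing in the nucleus and silence translation in the cytoplasm. TIAL1 (chromosome 10, 119571802 to 119597029) had the largest change of the 10 at H1R1. Its levels were 125 and 132 CPM in NC, 134 and 136 CPM in H1, 190.5 and 177 CPM in H1R1, 131 and 128 CPM in H1R6, and 162 CPM in H1R18. The H1R1 libraries stood above all others, H1R6 was back within the range of NC, and H1R18 lay between. The log2 fold change at H1R1 was 0.52 against NC (SE 0.087, adjusted p = 5.38e-05) and 0.45 against H1 (SE 0.085, adjusted p = 0.000606). H1R6 differed from H1R1 by -0.50 (SE 0.086, adjusted p = 8.44e-05), which made TIAL1 the 1 member called in that comparison, beside 15.4% of all genes and 27.9% of the abundant ones called, and 8.93% of all genes called lower. All 3 of these calls were made in each of 18 alternatives. H1R18 was higher than NC by 0.33 (SE 0.11, adjusted p = 0.0468) and than H1R6 by 0.32 (SE 0.11, adjusted p = 0.0465), and each of these was lost in 7 of 17 alternatives, without NC replicate 1 (adjusted p = 0.111) and without H1R6 replicate 2 (adjusted p = 0.164) among them.

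TIA1 (chromosome 2, 70209444 to 70248660) was called against NC at no time. It was at 93.6 and 121 CPM in NC, 89.1 and 86.5 CPM in H1, 111 and 108 CPM in H1R1, 92.9 and 93.7 CPM in H1R6, and 99 CPM in H1R18. The NC libraries lay further apart than those of any other condition, and the H1R1, H1R6 and H1R18 libraries overlapped with their range. At H1 the difference was -0.28 (SE 0.11, adjusted p = 0.142), with both H1 libraries below both NC libraries. Without NC replicate 1, the lower of the NC libraries, it was -0.46 and passed the test (adjusted p = 0.0187), so this call rests on which NC library is used. H1R1 was higher than H1 by 0.32 (SE 0.11, adjusted p = 0.0472), and 10 of 18 alternatives did not call it. Within a library, TIAL1 exceeded TIA1 by ratios of 1.34 and 1.10 in NC, 1.51 and 1.58 in H1, 1.72 and 1.64 in H1R1, 1.41 and 1.37 in H1R6, and 1.63 in H1R18, and all 7 libraries after heat lay above both NC libraries.

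**Figure D3:**
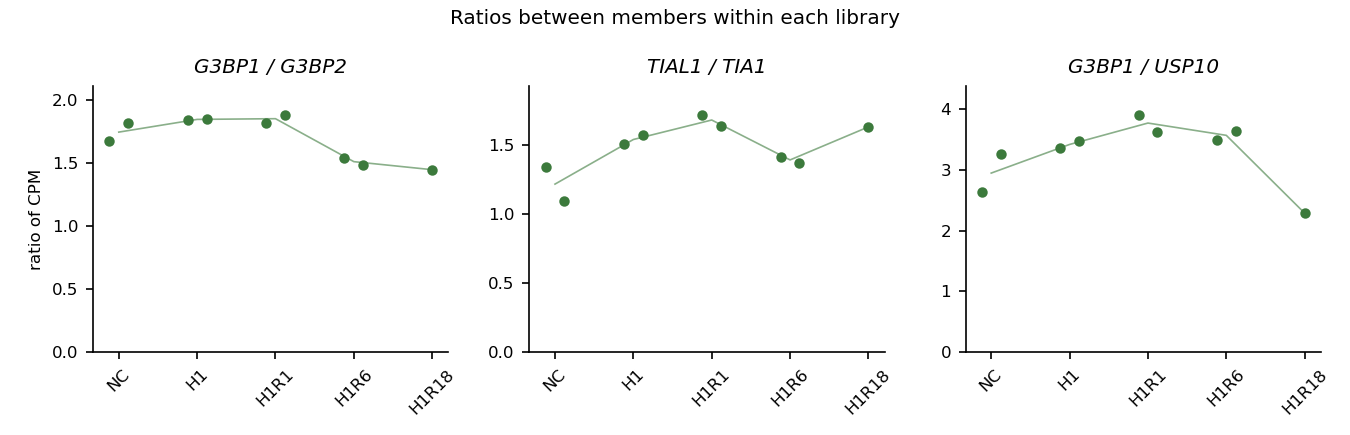
Ratio of CPM between pairs of the 10 genes within each of the 9 libraries, in the order NC, H1, H1R1, H1R6, H1R18; points are libraries and lines join condition means. G3BP1 to G3BP2 is lowest at H1R6 and H1R18, TIAL1 to TIA1 is above NC in every heated library, and G3BP1 to USP10 drops to 2.29 at H1R18.

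PABPC1, the cytoplasmic poly(A)-binding protein that coats mRNA tails, was the most abundant of the 10. It stood at 1229 and 1199.5 CPM in NC, 1272 and 1269 CPM in H1, 1242 and 1259.7 CPM in H1R1, 1175 and 1117 CPM in H1R6, and 1417 CPM in H1R18. The H1R18 library was above all others and the H1R6 libraries were below all others. At H1R18 the log2 fold change was 0.22 against NC (SE 0.067, adjusted p = 0.0287), which was lost in 4 of 17 alternatives, among them without NC replicate 2 (adjusted p = 0.0543). Against H1R6 it was 0.31 (SE 0.067, adjusted p = 0.00182), and that call was made in all 17, each with the same H1R18 library.

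ATXN2, which binds PABPC1 and is named for the ataxia caused by its repeat (chromosome 12, 111443485 to 111599676), was called in none of the 7 comparisons. Its levels were 149.7 and 131 CPM in NC, 149 and 150.1 CPM in H1, 167 and 160.1 CPM in H1R1, 145 and 147 CPM in H1R6, and 162 CPM in H1R18. H1R1 and H1R18 lay above both NC libraries, with log2 fold changes of 0.22 (SE 0.089, adjusted p = 0.0853) and 0.20 (SE 0.11, adjusted p = 0.262). The H1R1 difference passed the test in 1 of 18 alternatives, that without NC replicate 1.

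FMR1, which encodes the ribosome-associated protein lost in fragile X syndrome (chromosome X, 147911919 to 147951125), was lower at H1R18. It was at 203 and 195 CPM in NC, 201 and 187 CPM in H1, 194 and 204 CPM in H1R1, 184 and 164 CPM in H1R6, and 142 CPM in H1R18. The libraries of NC, H1 and H1R1 overlapped, those of H1R6 lay below NC, and the H1R18 library was the lowest. At H1R6 the difference from NC was -0.19 (SE 0.085, adjusted p = 0.195). At H1R18 FMR1 differed by -0.49 (SE 0.11, adjusted p = 0.00294), and all 17 alternatives, each with the same H1R18 library, called it.

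The times were also compared each with the one before. Between H1 and H1R1, 6 of 10 members were called and all were higher at H1R1 (G3BP1, G3BP2, CAPRIN1, UBAP2L, TIA1 and TIAL1), where 11.4% of all genes and 23.2% of the abundant ones were called, and 6.35% of all genes were called higher. G3BP1 differed by 0.29 (SE 0.068, adjusted p = 0.0036), G3BP2 by 0.29 (SE 0.078, adjusted p = 0.0125), CAPRIN1 by 0.30 (SE 0.069, adjusted p = 0.0033) and UBAP2L by 0.27 (SE 0.079, adjusted p = 0.022). This count is not firm, since 1 member (TIAL1) was left without H1 replicate 1, without H1 replicate 2 or without H1R1 replicate 1. Between H1R6 and H1R18, 6 members were called beside 13.9% of all genes and 28.4% of the abundant ones. G3BP1, G3BP2, CAPRIN1 and UBAP2L were lower at H1R18, as were 7.65% of all genes, and TIAL1 and PABPC1 were higher, as were 6.28%. At H1R18 the count against NC was 2 in place of 4 without H1 replicate 1, with G3BP1 and FMR1 still called.

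Per kilobase of annotated exon, the members in NC ran from PABPC1 at 127 ± 2.22 CPM per kb down to ATXN2 at 8.48 ± 0.799 CPM per kb (SD, n = 2). CAPRIN1 was second at 41.1 ± 0.0866 CPM per kb. UBAP2L (32.5 ± 2.24) and USP10 (29.9 ± 4.07) came next and overlapped, as did FMR1 (22.2 ± 0.667) with G3BP1 (22.1 ± 0.369). G3BP2 (18.3 ± 0.748), TIAL1 (17.5 ± 0.662) and TIA1 (16.2 ± 2.91) could not be ordered either. The exon length joins all annotated exons of a gene, and for G3BP1 it is 20038 bases, where its longest protein-coding transcript in GENCODE 29 has 10240, so these levels depend on the length chosen.

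As a description of how the members varied together, Pearson's r of log2 CPM over the 9 libraries was 0.94 between G3BP1 and CAPRIN1, 0.93 between CAPRIN1 and UBAP2L, 0.91 between G3BP2 and CAPRIN1 and 0.86 between G3BP1 and G3BP2. It was 0.56 between G3BP1 and USP10, 0.20 between G3BP1 and TIAL1, 0.49 between TIA1 and TIAL1, and -0.66 between G3BP1 and PABPC1. The points share their conditions in pairs and a scaling factor per library, and 1 of them is the single H1R18 library. Among 9676 genes with an average log2 CPM of 4 or more, the 5 most like G3BP1 were SF3B5, EIF4G2, SLC16A1, CDC6 and ENO1. Their r over the same 9 libraries was between 0.987 and 0.996, above the 0.94 of CAPRIN1, so a high r with G3BP1 was not particular to the members. Those most like TIAL1 included STK17B, SEC24A, NCOA1 and RNF11, with r between 0.957 and 0.972.

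Heat shock genes carry heat shock elements, alternating inverted GAA units spaced by 2 bases to which the factor HSF1 binds, and the promoters of the 5 members higher at H1R1 were searched for them. RefSeq (GRCh38.p14) gives 11 start windows for these 5 genes, each from 250 bases before to 50 after a start. A pattern of 3 units (GAANNTTCNNGAA or TTCNNGAANNTTC, both strands) was in 0 of the 11 windows and in 0.490% of 35116 windows of all genes. A pair of units (GAANNTTC or TTCNNGAA), searched after the first had given no match, was in 1 of the 11, that of TIAL1, and in 13.5% of all windows. The 250 bases before the TIAL1 start (chr10:119596965-119597214, minus strand) are shown with the pair in capitals, beside those before the start of HSPA6 (chr1:161524290-161524539, plus strand), which hold the longer pattern, with its pairs in capitals. On this strand the TIAL1 gene as annotated in the count table begins at 119597029, inside the window. By that annotation the pair lies within the gene.
TIAL1: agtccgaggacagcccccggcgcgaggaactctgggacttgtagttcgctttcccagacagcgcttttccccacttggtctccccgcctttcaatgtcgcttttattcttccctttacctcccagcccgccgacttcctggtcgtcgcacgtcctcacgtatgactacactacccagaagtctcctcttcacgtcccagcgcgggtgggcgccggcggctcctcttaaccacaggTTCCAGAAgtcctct
HSPA6: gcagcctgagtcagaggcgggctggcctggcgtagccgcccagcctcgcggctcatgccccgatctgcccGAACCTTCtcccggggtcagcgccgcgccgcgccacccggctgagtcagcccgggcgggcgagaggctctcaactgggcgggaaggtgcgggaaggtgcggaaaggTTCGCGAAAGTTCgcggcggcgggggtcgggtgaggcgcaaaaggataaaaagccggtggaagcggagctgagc
The TIAL1 pair begins 15 bases before the RefSeq start of that gene. The HSPA6 pairs begin 180, 74 and 69 bases before the RefSeq start of HSPA6, the last 2 overlapping to make 3 units. The 3-unit pattern was in none of the windows of HSPH1 or DNAJB1, both heat shock genes called higher at H1, and the pair was in 2 of the 3 windows of DNAJB1 and not in that of HSPH1. A match of letters is not a site, and the absence of one says only that these letters are not in these windows.

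Beside the 10 core genes stood 4 lists of genes that act with them. Their counts are to be read against the share of all genes called, 5.2% at H1, 20.2% at H1R1, 7.03% at H1R6 and 11% at H1R18, and of the abundant genes, 7.84%, 35.3%, 16% and 22.6% at the same times. Of 46 other stress granule proteins 45 were tested, since TAF15 had 6 counts over the 9 libraries together. Another annotated gene shared 7.21% of the exon bases of TAF15. Whether TAF15 was little expressed or its reads were lost in alignment or counting was not tested. At H1, 3 of the 45 passed the test and all were higher, and at H1R1 22 were higher and 2 lower, with a median of 0.22, as in the core list, while 10.7% of all genes were called higher at H1R1. The largest rises at H1R1 were those of NUFIP2, a partner of FMR1, by 1.01 in log2 (SE 0.071, adjusted p = 2.11e-12), and of the RNA-binding LARP4 at 0.89 (SE 0.095, adjusted p = 2.49e-08). NUFIP2 stood at 692 and 664 CPM in H1R1, against 329 and 342 CPM in NC, and it was also higher at H1 (0.42) and H1R18 (0.49). CAPRIN2, a paralog of CAPRIN1, was lower at H1R1, with a log2 value of -1.09 (SE 0.18, adjusted p = 4.85e-05), as was EIF4B with -0.20 (SE 0.069, adjusted p = 0.0383). At H1R6 6 were higher and 5 lower, led by TARDBP (0.51) and ZC3HAV1 (0.40) above NC, both also higher at H1R1 (0.63 and 0.58), and by HNRNPA1 (-0.42) and EIF4B (-0.29) below it. At H1R18 4 were higher and 9 lower, with LARP4B (0.50) higher and the antiviral ZC3HAV1 (-1.02) lower, ZC3HAV1 at 65.7 CPM in H1R18, against 138 and 129 CPM in NC.

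Processing bodies, the granules of mRNA decay that dock on stress granules, were represented by 22 genes. Of these, 3 passed the test at H1 and 9 at H1R1 (8 higher and 1 lower), with a median of 0.24 at H1R1, while 20.2% of all genes and 35.3% of the abundant ones were called at H1R1. TNRC6C (0.72) and TNRC6A (0.41), scaffolds of miRNA silencing, led at H1 and were also higher at H1R1 (0.58 and 0.57). AGO3 (0.97) and the decapping subunit DCP1A (0.70) led at H1R1, where TNRC6B was the gene called lower (-0.26). At H1R6 EDC3 (0.38, and 0.54 at H1R1) and DCP2 (0.26) were higher and PAN2 (-0.41) lower than NC, and at H1R18 PAN2 (0.64) and DCP1A (0.38) were higher and EDC4 (-0.52) and TNRC6A (-0.48) lower.

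The switch that stops initiation, phosphorylation of eIF2α, was followed through 14 genes of its kinases, phosphatase subunits, eIF2 and eIF2B. PPP1R15A, the inducible subunit that has eIF2α dephosphorylated, was at 78.8 and 79.3 CPM in H1, against 32.2 and 24.3 CPM in NC, with a difference of 1.47 on the log2 scale (SE 0.15 and adjusted p = 3.96e-08). It was also higher at H1R1 (0.88) and H1R18 (0.96), and its constitutive counterpart PPP1R15B was higher at H1 (0.29), H1R1 (0.74) and H1R18 (0.62). The kinase gene EIF2AK3 was higher at H1R1 (0.84) and H1R18 (0.57), EIF2B2 was higher at H1R1 (0.58) and H1R6 (0.53), EIF2AK4 was lower at H1R6 (-0.37), and EIF2S2, a subunit of eIF2, was lower at H1R18 (-0.83). In all, 2, 4, 2 and 4 of the 14 were called at H1, H1R1, H1R6 and H1R18, beside 5.2%, 20.2%, 7.03% and 11% of all genes, and over these 4 comparisons the sum of 12 was 7 without NC replicate 2.

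Genes for the dissolution of granules, 14 in number, include chaperones, VCP with its cofactors and the kinases that act on them. BAG3, a co-chaperone that clears faulty granules with HSPB8 and HSP70, was at 406 and 428 CPM in H1R1, against 32.2 and 30.5 CPM in NC, and its log2 fold change was 2.92 at H1, 3.73 at H1R1 and 1.30 at H1R6. HSPA8, the constitutive HSP70, was higher at H1 (0.98) and H1R1 (2.05) and lower at H1R18 (-0.81), while HSPB8 was higher at H1R1 (1.36) and H1R6 (1.22). ZFAND1, which brings the proteasome and VCP to arsenite granules, was lower at H1R1 (-0.39), and ULK1, a kinase of VCP, was lower at H1R18 (-0.49). The list had 3, 8, 3 and 5 genes called at H1, H1R1, H1R6 and H1R18, beside 5.2%, 20.2%, 7.03% and 11% of all genes. The 5 at H1R18 were all lower, as were 6.43% of all genes. BAG3, HSPA8 and HSPB8 belong to the heat shock response itself, and the whole list was chosen with such results known.

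**Figure D4:**
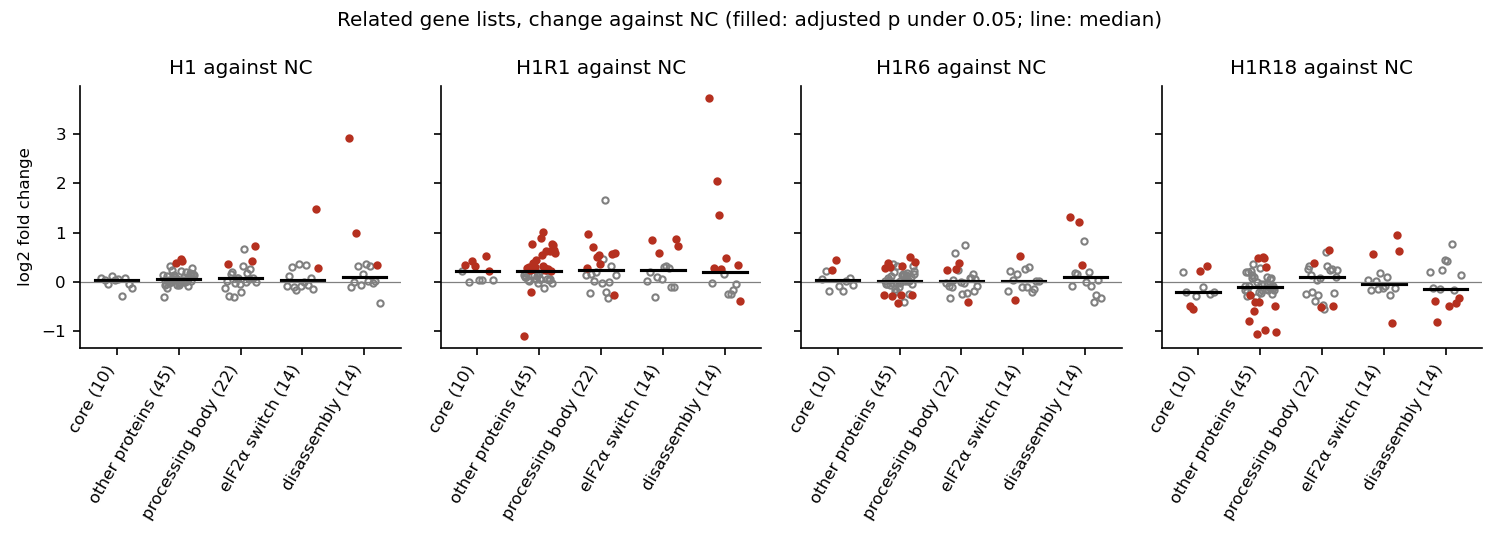
Log2 fold change against NC of every tested gene of the core list (10 genes) and of the 4 related lists (45, 22, 14 and 14 genes), with H1, H1R1, H1R6 and H1R18 in panels from left to right. Filled points have an adjusted p under 0.05 and bars are medians. The medians lie above 0 in all 5 lists at H1R1, and BAG3 is the highest point at H1 and H1R1.

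Reads that fit several genes were not counted, and the counting used no strand, which touches some members more than others. Of the words of 50 bases in the longest protein-coding transcript of each gene in GENCODE 29, 16.5% of USP10's and 12.0% of PABPC1's also occur in transcripts of other genes, PABPC3 and pseudogenes of PABPC1 among them. The share was 3.52% for TIA1 and under 1% for the other 7. Exons of other annotated genes covered 3.19% of the exon bases of TIA1 and 1.69% of those of UBAP2L, and less than 1% for the rest. Antisense genes share exon bases with G3BP1 (ATOX1), G3BP2 (USO1), CAPRIN1 and ATXN2 (SH2B3 and ATXN2-AS). With strand ignored, reads over those bases fit both genes and were dropped.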

How the data were processed

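RNA-seq of 9 HEK293T libraries was used. The authors deposited raw counts per gene, which per the file header came from featureCounts 2.0.2 with the Ensembl 104 annotation of GRCh38. Both reads of a pair were counted, strand was ignored, and reads of several alignments or genes were dropped. The submitters' processing notes name HISAT2 2.2.1 as aligner. Exon length, another value of the deposited table, was used for levels per kilobase. Every count column matched a labelled sample, and the labels give no batch. The notes also list DESeq2 1.38.3, but neither the paper nor the protocols describe an RNA-seq test.

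Genes were filtered with filterByExpr (minimum count 10, minimum total 15), scaled by TMM and fitted with edgeR 4.0.16 (R 4.3.3), 1 coefficient per condition, all 9 libraries in 1 quasi-likelihood fit. Standard errors were derived from the test, as the absolute log2 fold change over the root of F. P-values were adjusted by Benjamini-Hochberg over all 21139 genes tested. Gene names were found for 99.7% of identifiers. Alternatives were DESeq2 1.42.0, 3 other scalings, 2 other filters, the conditions compared alone and no H1R18 library. The others were the replicate number as a block, counts divided by 2 (as for read pairs) and each library except that of H1R18 left out in turn.

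The members and lists were chosen with earlier results of these data known. From each related list the text names, per comparison with NC, the 2 largest rises and 2 largest falls among called genes whose average log2 CPM was 3 or more. Beyond that rule it names TAF15, and adds further times at which a named gene was called (PPP1R15B, TARDBP, ZC3HAV1, TNRC6A, TNRC6C, EDC3, EIF2AK3, EIF2B2 and HSPB8), chosen after their values were seen. A few genes that the rules would name are not reported here.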

Additional observations from a re-analysis of the deposited data

Results flagged for a closer look

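Members whose level differed between one time and the time before it, by edgeR's quasi-likelihood test of that difference, were G3BP1 (log2 fold change 0.29), G3BP2 (0.29), CAPRIN1 (0.30), UBAP2L (0.27), TIA1 (0.32) and TIAL1 (0.45) for H1R1 against H1, and TIAL1 (-0.50) for H1R6 against H1R1. For H1R18 against H1R6 they were G3BP1 (-0.79), G3BP2 (-0.73), CAPRIN1 (-0.41), UBAP2L (-0.32), TIAL1 (0.32) and PABPC1 (0.31), where H1R18 was 1 library.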

How the results depend on the processing

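No member's called value changed direction in any alternative. With 1 library left out at a time, the number of the 10 members called ran from 0 to 1 at H1 (1 without NC replicate 1), from 3 to 6 at H1R1 (3 without H1R1 replicate 1), from 1 to 3 at H1R6 (1 without NC replicate 1 or H1R6 replicate 2), from 2 to 4 at H1R18 (2 without H1 replicate 1), and from 1 to 6 for H1R1 against H1. For the eIF2α switch genes the sum over the comparisons with NC ran from 7 to 12. A condition left with 1 library was assumed to vary like the others. The H1R18 library could not be left out of its own comparisons. With only the conditions compared in the fit, 1 member in place of 2 was called at H1R6, and without a filter on low counts 2 in place of 4 were called at H1R18. DESeq2 called 12 in place of 19 for the granule disassembly genes. Deviations of same-numbered libraries correlated at -0.074 to 0.011 over 7118 genes, so no pairing by replicate number was seen. With 2 libraries per condition this does not exclude one. With the replicate block, 2 in place of 4 members were called at H1R18, where TIAL1 (adjusted p = 0.0784) and PABPC1 (adjusted p = 0.0540) were lost. TIAL1 was also lost for H1R18 against H1R6 (adjusted p = 0.0778) and no other member's call changed under the block. The causes of these shifts were not tested. At 3814195 to 6221613 counts per library and 2 libraries or fewer per condition, small differences such as those of USP10 and ATXN2 may go undetected.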
